A study of Mus musculus with 144 samples.

Results

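Livers of C3H/HeJ males on an atherogenic diet were compared with livers of C3H/HeJ males on chow, 3 animals on each diet and 1 array per animal. These 6 libraries were taken by their strain, sex and diet labels, and are 2 of the 48 groups of 3 in a survey of 12 inbred mouse strains, 2 sexes and 2 diets. Chow was the regular diet, at 6% fat, and the atherogenic diet was one of 30% fat to which cholic acid, a bile acid, had been added. Fat and cholic acid came together, so their parts in any change cannot be told apart, and how long the diets were fed is not given in the sources used here. The mice were 11 to 13 weeks old at harvest, and the labels name no mutation or agent beyond strain and diet. Other libraries used for comparison were those of C3H/HeJ females, 3 on each diet, and of males of 129S1/SvImJ, A/J, C57BL/6J, BALB/cJ, NZB/BINJ, I/LnJ, DBA/2J and MRL/MpJ-Tnfrsf6lpr/J, 3 on each diet, all of the same ages and diets. That last strain, called MRL below, carries the lpr mutation of the Fas death receptor gene.

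C3H/HeJ is an inbred strain known for a loss-of-function allele of Tlr4, the receptor that senses bacterial lipopolysaccharide together with Cd14, Lbp and Ly96. The liver makes cholesterol from acetyl-CoA through the mevalonate route, and the genes of that route are switched on by SREBP-2, which is held in the endoplasmic reticulum by Insig and Scap when membrane sterol is plentiful. Oxysterols, which rise with cholesterol, activate the nuclear receptor LXR, whose targets export cholesterol from cells. Bile acids are made from cholesterol in hepatocytes and act on the receptor FXR, which represses their synthesis. Diets with fat and cholic acid are a standard way to bring on fatty, inflamed livers in mice.

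Values are log2 intensities of 1 probe set per gene, and a difference of 1 is a 2-fold difference. Over 18193 genes, 1312 differed between the diets at an adjusted p under 0.05 (limma with Benjamini-Hochberg adjustment over all genes), 7.21% of those tested. Of these 805 were higher on the atherogenic diet (4.42%) and 507 lower (2.79%), and 203 rose (1.12%) and 58 fell (0.319%) at least 2-fold as well. "Rose" and "fell" are used below for genes past the adjusted p alone, and "change" is the mean on the atherogenic diet minus the mean on chow. Counts of list members that rose or fell are to be read against the 4.42% and 2.79% of all genes. The median change of all genes was -0.01. The 3 values on one diet all lay above the 3 on the other, with no overlap, for 11.8% of genes upward and 12.1% downward. The count of 1312 was lower without any 1 animal. It was 765 without the second animal on the atherogenic diet and 838 without the first on chow, and the other 4 omissions gave 899 to 1182. Each omission also left a group with fewer than 3 libraries, which alone can cost calls, and the part of each animal was not tested. The 15 largest rises and 15 largest falls named below were taken among genes that passed with no overlap between the diets. They passed in every one of the alternatives tried, these omissions included.

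Array medians ran from 5.0 to 5.09 over all libraries of the series, and the 12 C3H/HeJ libraries matched their sex labels by Xist and 3 genes of the Y chromosome. The 3'-to-5' difference of the actin control probe sets, a measure of how complete the copied RNA was, was 0.99 to 1.16 in the males on chow and 0.72 to 0.90 in those on the atherogenic diet, while that of the Gapdh controls overlapped (-0.05 to 0.04 and -0.05 to 0.03). The part of this actin difference in the results was not tested. In males of a further strain, SM/J, the diet change ran against that of C3H/HeJ males over all genes (Pearson r = -0.69, a description across genes, which are not independent), against 0.21 to 0.74 for the 8 strains above. The diet labels of the SM/J males are therefore in doubt, and the comparison with other strains leaves them out; what changed with them is said beside it. Hepatocyte markers checked the tissue: of 15 measured, none passed in limma, nor did any have an unadjusted p under 0.05 (their changes ran from -0.11 to 0.41), and their summed intensities overlapped between the diets (142493 to 145603 on chow and 140848 to 149278 on the atherogenic diet). Over all genes 3164 of 18193 had an unadjusted p under 0.05 for the diet change.

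The genes of cholesterol synthesis were lower on the atherogenic diet along the whole measured route. All 17 measured members of 20 listed fell, with no overlap between the diets in any of them and a median change of -1.99. In these livers squalene epoxidase, Sqle, the enzyme that commits squalene to sterols, had log2 intensities of 8.91, 8.95 and 8.94 on chow and 4.90, 4.95 and 4.74 on the atherogenic diet. Sqle fell by 4.07 (SE 0.39, adjusted p = 1.34e-13), the largest fall of any gene that passed with no overlap. Its 3 values on the atherogenic diet lay below the median of each array, so that the size of the fall may be understated. Before the sterol ring is closed, the isomerase Idi1 stood at 10.43, 10.63 and 10.61 on chow and 7.52, 7.51 and 7.41 on the atherogenic diet, a fall of 3.08 (SE 0.37, adjusted p = 1.16e-09). Farnesyl diphosphate synthase, Fdps, stood at 11.30, 11.22 and 11.41 and 8.17, 8.83 and 8.62, and its change was -2.77 (SE 0.40, adjusted p = 1.76e-07). A second probe set of Fdps did not follow (0.17, adjusted p = 0.708), while the second of Idi1 did (-5.09, adjusted p = 2.48e-13). The synthase at the head of the route, Hmgcs1, went from 11.05, 10.89 and 10.96 to 8.94, 8.97 and 9.02, and phosphomevalonate kinase, Pmvk, from 9.17, 8.97 and 8.95 to 6.90, 6.90 and 7.24. Hmgcs1 fell by 1.99 (SE 0.32, adjusted p = 3.02e-06) and Pmvk fell by 2.01 (SE 0.25, adjusted p = 3.81e-09).

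After ring closure, the enzymes that strip methyl groups from lanosterol fell together. Lanosterol demethylase, Cyp51, stood at 9.27, 9.40 and 9.47 on chow and 5.94, 6.86 and 6.80 on the atherogenic diet and fell by 2.85 (SE 0.30, adjusted p = 8.99e-12). The methylsterol monooxygenase Msmo1 stood at 10.71, 10.84 and 10.93 and 7.82, 7.97 and 7.95 and fell by 2.91 (SE 0.33, adjusted p = 1.25e-10). Nsdhl, the dehydrogenase that acts with it, stood at 10.61, 10.81 and 10.63 and 7.47, 8.11 and 7.86 and fell by 2.87 (SE 0.29, adjusted p = 7.28e-13). The 3 animals on the atherogenic diet were close to each other in Msmo1, while in Cyp51 the first animal lay lowest. A further probe set of Msmo1 (-0.51, adjusted p = 0.108) and 1 of the 2 others of Cyp51 (-0.44, adjusted p = 0.0701) did not pass, while the remaining one of Cyp51 fell (-3.35, adjusted p = 5.64e-11). The last reductase, Dhcr7, stood at 10.14, 10.02 and 10.13 and 7.96, 8.24 and 8.13 and fell by 1.99 (SE 0.29, adjusted p = 1.9e-07). The remaining members fell by less, from -1.80 for the sterol reductase Tm7sf2 to -0.41 for the sterol isomerase Ebp, with Lss, Fdft1, Hsd17b7, Sc5d, Mvd and Mvk between them. Mvk (-0.72) kept its direction but not its call without the first or the third animal on chow or the first or the second on the atherogenic diet (changes over the 6 omissions of -0.79 to -0.62) and Mvd (-1.18) did so without the first on chow or the second or the third on the atherogenic diet (-1.25 to -1.08). Leaving out single libraries left 15 to 17 members called.

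**Figure D1:**
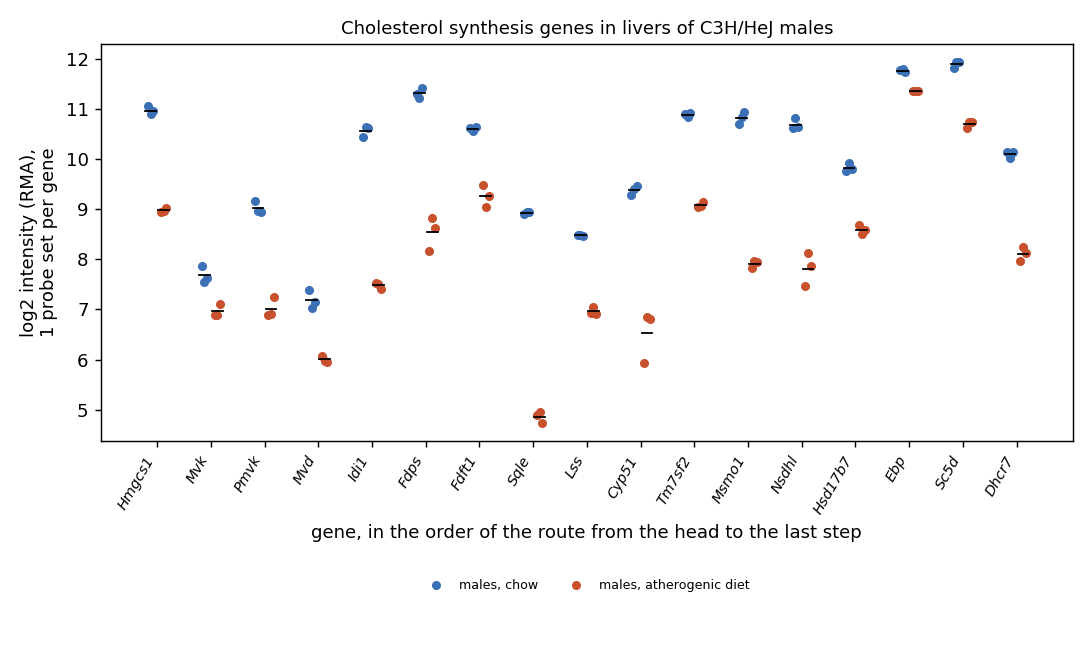
Log2 intensity of the 17 measured cholesterol synthesis genes in each C3H/HeJ male, in the order of the route. Points are animals, 3 on chow (blue) and 3 on the atherogenic diet (red), and bars are group means; in every gene the red points lie below the blue ones, most deeply in Sqle, which went from a mean of 8.93 to 4.86. Levels of different genes come from different probe sets and cannot be set against each other.

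Promoters of these members are shown because the genes moved together and are known to share binding sites for SREBP and for NF-Y, the factor that reads CCAAT. The RefSeq table (GRCm38.p6) held a promoter window for 14 of the 17 members, and none for Fdft1, Fdps and Sqle. In the 250 bases before the start site, CCAAT on either strand was found in all 14 genes, and in 14 of their 17 windows, against 33.8% of 32851 windows of that length. The letters TCACNCCAC, a sterol response element, were found in 1 of the 14 genes, Hmgcs1, against 1.05% of windows. A match is a description of the letters, not a shown site, and no match says only that these letters are not in this window. Below are 120 bases, 5′ to 3′ in the gene's direction, for the 4 members with the largest falls among those with a window, each ending at the base before the start site, and for Hmgcs1 from 187 to 68 bases before it, chosen after its match was seen. The capitals mark CCAAT, which reads ATTGG where it lies on the opposite strand, and in Hmgcs1 also the sterol response element. Outside the stretches shown lie further CCAAT matches, 1 upstream in Msmo1 and 1 on each side in Hmgcs1. The windows are Idi1 chr13:8885486-8885605 on the plus strand, Msmo1 chr8:64733579-64733698 on the minus strand, Nsdhl chrX:72918401-72918520 on the plus strand, Cyp51 chr5:4104698-4104817 on the minus strand and Hmgcs1 chr13:119690164-119690283 on the plus strand.
Idi1: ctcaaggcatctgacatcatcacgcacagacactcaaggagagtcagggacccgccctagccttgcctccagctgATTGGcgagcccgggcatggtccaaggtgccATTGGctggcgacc
Msmo1: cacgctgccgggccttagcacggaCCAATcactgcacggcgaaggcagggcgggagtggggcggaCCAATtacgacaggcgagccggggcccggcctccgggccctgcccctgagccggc
Nsdhl: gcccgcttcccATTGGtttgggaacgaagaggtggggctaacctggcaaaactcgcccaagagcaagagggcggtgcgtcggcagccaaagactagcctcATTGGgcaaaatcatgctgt
Cyp51: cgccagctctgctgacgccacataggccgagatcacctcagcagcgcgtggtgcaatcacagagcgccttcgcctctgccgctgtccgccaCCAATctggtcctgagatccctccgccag
Hmgcs1: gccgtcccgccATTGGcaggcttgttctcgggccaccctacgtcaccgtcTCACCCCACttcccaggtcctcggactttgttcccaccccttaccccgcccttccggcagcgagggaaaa

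Genes of cholesterol uptake and its control moved both ways. Of 13 measured, 5 fell and 3 rose, with a median change of -0.23. Rdh11, a retinol dehydrogenase that is itself a target of SREBP, stood at 9.52, 9.41 and 9.35 on chow and 6.50, 6.87 and 7.11 on the atherogenic diet, a fall of 2.60 (SE 0.30, adjusted p = 2.18e-10). The sterol carrier Stard4 fell by 1.47 (SE 0.24, adjusted p = 2.8e-06), the SREBP escort Scap by 0.83 (SE 0.10, adjusted p = 2.12e-09) and its retention partner Insig1 by 1.35 (SE 0.35, adjusted p = 0.00642). The fall of Insig1 lost its call without the second animal on the atherogenic diet (-1.23, adjusted p = 0.0557). Rises were seen in the ubiquitin ligase gene Mylip (0.94, SE 0.17, adjusted p = 2.32e-05), in the sterol-regulated ligase Rnf145 (0.77, SE 0.16, adjusted p = 0.000323) and in the HDL receptor Scarb1 (0.66, SE 0.15, adjusted p = 0.00163).

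Targets of LXR rose. Of 12 measured, 8 rose and none fell, with a median of 0.96, and the same number passed when any 1 library was left out. The exporter Abcg1, which loads cholesterol onto HDL and is abundant in macrophages, stood at 6.24, 6.39 and 6.76 on chow and 9.13, 9.01 and 9.17 on the atherogenic diet, a rise of 2.64 (SE 0.20, adjusted p = 1.1e-18). A second probe set of Abcg1 rose less (0.59, adjusted p = 0.000176). Abcg5 and Abcg8, which pair to pump sterol into bile, rose by 1.90 (SE 0.15, adjusted p = 2.16e-18) and 1.43 (SE 0.17, adjusted p = 1.18e-09). Abcg5 stood at 10.06, 10.05 and 10.15 and 12.18, 11.85 and 11.92, with no overlap. Srebf1, which encodes the SREBP that drives fatty acid synthesis, rose by 0.98 (SE 0.24, adjusted p = 0.00407), lipoprotein lipase, Lpl, by 1.21 (SE 0.27, adjusted p = 0.00109), the phospholipid transfer protein Pltp by 1.02 (SE 0.19, adjusted p = 6.89e-05) and the exporter Abca1 by 0.50 (SE 0.10, adjusted p = 0.000143). Mylip, given above, is also on this list, which shares it with the uptake genes.

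In bile acid synthesis, 2 of 14 measured genes fell and none rose (median -0.13). Cyp8b1, the hydroxylase that sets how much cholic acid is made, stood at 11.89, 11.84 and 11.78 on chow and 10.73, 10.07 and 10.25 on the atherogenic diet, a fall of 1.49 (SE 0.37, adjusted p = 0.00402). Cyp7a1, the rate-limiting enzyme of the main route, stood at 8.85, 9.15 and 9.17 and 9.47, 8.57 and 8.78, overlapped and did not pass (-0.11, SE 0.60, adjusted p = 0.967). Cyp27a1, which opens the other route, fell by 0.38 (SE 0.10, adjusted p = 0.0103), a call lost without the second animal on the atherogenic diet (-0.35, adjusted p = 0.0675), and its second probe set did not follow (0.06, adjusted p = 0.674). Of 18 genes that sense or carry bile acids, Slc10a1, the importer of the sinusoidal membrane, fell by 0.47 (SE 0.10, adjusted p = 0.000564) and Nr1h4, which encodes FXR, by 0.46 (SE 0.13, adjusted p = 0.0166). The drug exporter Abcb1a rose by 0.87 (SE 0.24, adjusted p = 0.0104). The calls of Nr1h4 and Abcb1a were lost without the second animal on the atherogenic diet (-0.41 and 0.72) and also without the first (Nr1h4, -0.44) or the second (Abcb1a, 0.81) on chow. The bile salt export pump Abcb11 (0.07, SE 0.13, adjusted p = 0.884) and the FXR-induced repressor Nr0b2 (0.08, SE 0.32, adjusted p = 0.957) did not pass.

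In fatty acid and triglyceride synthesis, 8 of 24 measured genes fell and 1 rose (median -0.40), and the number that fell was 5 without the first or the third animal on chow or the first or the second on the atherogenic diet. Acacb, the mitochondrial acetyl-CoA carboxylase, fell by 1.72 (SE 0.33, adjusted p = 9.83e-05), the acetyl-CoA synthetase Acss2 by 1.33 (SE 0.27, adjusted p = 0.000273), malic enzyme, Me1, by 1.20 (SE 0.32, adjusted p = 0.00716) and the desaturase Fads1 by 1.16 (SE 0.18, adjusted p = 1.02e-06). Fatty acid synthase, Fasn, did not pass (-0.90, SE 0.47, adjusted p = 0.312). Scd2, a desaturase that adult hepatocytes make little of, was the one that rose: 4.53, 4.43 and 4.82 on chow and 6.66, 6.88 and 7.37 on the atherogenic diet, a rise of 2.38 (SE 0.22, adjusted p = 2.33e-14). Of 2 further Scd2 probe sets 1 rose less (0.86, adjusted p = 6.46e-05) and 1 did not pass (0.46, adjusted p = 0.231). The hepatocyte desaturase Scd1 stood at 13.81, 13.82 and 13.80 and 14.01, 14.13 and 14.14, near the top of the scale, and did not pass (0.28, SE 0.25, adjusted p = 0.658).

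Fatty acid oxidation and targets of the receptor PPARA had no rise. Of 23 measured, 4 fell (median -0.28), 17 lay lower with no overlap (12.1% of all genes did), and the number called was 0 without the second animal on chow and 1 or 2 without any other single animal. The carnitine carrier Slc25a20 (-0.47, SE 0.13, adjusted p = 0.0125) and Cpt2 (-0.35, SE 0.11, adjusted p = 0.0294), both of the mitochondrial entry of fatty acids, fell beside the beta-oxidation genes Hadhb (-0.33) and Acadl (-0.28). Slc25a20 lost its call without the first or the second animal on chow or the second on the atherogenic diet, and Cpt2 without the second or the third on chow or the first or the third on the atherogenic diet. The receptor target Cyp4a14 did not pass (-1.07, SE 0.63, adjusted p = 0.403). For lipid storage, 4 of 21 genes rose and 4 fell. The fatty acid importer Cd36 stood at 6.62, 6.34 and 6.64 on chow and 8.46, 8.57 and 8.73 on the atherogenic diet, a rise of 2.05 (SE 0.23, adjusted p = 1.44e-10). Another probe set rose alike (2.02, adjusted p = 5.21e-09), and a further one did not pass (0.56, adjusted p = 0.16). Apoa4 rose by 1.27 (SE 0.23, adjusted p = 2.66e-05) and Fabp4, a fatty acid binding protein of fat cells and macrophages, by 1.19 (SE 0.17, adjusted p = 1.26e-07). Of 3 further Fabp4 probe sets 1 rose (1.28, adjusted p = 5.09e-07) and 2 did not pass (0.12, adjusted p = 0.622, and 0.07, adjusted p = 0.869). Fitm2, which helps lipid droplets form, fell by 0.74 (SE 0.16, adjusted p = 0.00088) beside G0s2, Fitm1 and the lipase Lipe, and the number of storage genes that fell was 1 without the third animal on chow or the second on the atherogenic diet, 2 without the first on chow or the third on the atherogenic diet, and 3 in the other omissions. The droplet coat gene Plin2 did not pass (-0.49, SE 0.19, adjusted p = 0.111). Among 16 genes of lipoprotein handling, 4 rose, led by the editing enzyme Apobec1 (1.27, SE 0.19, adjusted p = 6.44e-07) and Apoc2 (0.61, SE 0.11, adjusted p = 1.51e-05), and 2 fell, Pon1 (-0.41, SE 0.07, adjusted p = 3.34e-05) and Mttp (-0.36, SE 0.11, adjusted p = 0.0215). Mttp, which loads lipid onto nascent lipoproteins, lost its call without the first or the third animal on chow or the second on the atherogenic diet (-0.42 to -0.29).

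Markers of macrophages had the highest median change of the lists. Of 24 measured, 17 rose and 1 fell, with a median of 1.16, and 16 or 17 rose when any 1 library was left out. In whole liver, more cells of a type and more RNA per cell cannot be told apart. The summed intensity of the list was 6019 to 6609 on chow and 20295 to 22982 on the atherogenic diet. Mmp12, a macrophage elastase that is not on the list, had the largest rise among the genes that passed with no overlap: 4.27, 4.19 and 4.43 on chow, below the array median, and 8.50, 9.56 and 9.92 on the atherogenic diet. That is a change of 5.03 (SE 0.37, adjusted p = 7.68e-19), and with chow values this low it may understate the fold. Lgals3, the galectin of phagocytes, stood at 6.50, 6.27 and 6.38 and 10.43, 11.27 and 11.28 and rose by 4.61 (SE 0.35, adjusted p = 2.16e-18). The beta-glucan receptor Clec7a, also outside the list, stood at 5.91, 6.19 and 6.17 and 10.54, 10.53 and 10.63 and rose by 4.47 (SE 0.34, adjusted p = 2.16e-18). Gpnmb, a membrane glycoprotein of lipid-laden macrophages, stood at 5.40, 5.37 and 5.65 and 8.90, 9.41 and 9.25, a rise of 3.71 (SE 0.31, adjusted p = 1.1e-16), though its second probe set did not pass (0.17, adjusted p = 0.331). These 4 genes were named among those with no overlap between the diets, so the separation of their groups is given by that choice. Of the 4, Mmp12 was the one in which the animals on the atherogenic diet differed most among themselves.

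Further members of the macrophage list rose. Lyz2 stood at 8.53, 8.45 and 8.63 on chow and 11.10, 11.35 and 11.39 on the atherogenic diet, a rise of 2.74 (SE 0.31, adjusted p = 1.44e-10), Cd68, a lysosomal membrane protein, rose by 2.63 (SE 0.26, adjusted p = 3.7e-13) and cathepsin S, Ctss, by 2.40 (SE 0.28, adjusted p = 3.36e-10). Lyz2 and its neighbour Lyz1 are closely similar copies, so their probe sets may share signal. Cd14, the co-receptor for lipopolysaccharide, stood at 5.35, 5.34 and 5.61 and 7.16, 9.06 and 8.29 and rose by 2.74 (SE 0.40, adjusted p = 2.99e-07), with the first animal on the atherogenic diet lowest of the 3. The complement C1q chains, made by macrophages, rose by 1.01 (C1qa), 1.40 (C1qb) and 1.31 (C1qc), the growth factor receptor Csf1r by 0.87 (SE 0.22, adjusted p = 0.00441), the integrin Itgax by 1.64 (SE 0.30, adjusted p = 5.29e-05) and the scavenger protein Cd5l by 2.18 (SE 0.22, adjusted p = 2.63e-12). Markers that resident Kupffer cells are known for did not share one direction. Cd163, a haemoglobin scavenger receptor, stood at 5.71, 6.13 and 6.14 on chow and 4.16, 4.19 and 3.74 on the atherogenic diet and was the only member that fell, by 1.97 (SE 0.34, adjusted p = 1.44e-05). Timd4 (0.70, SE 0.31, adjusted p = 0.211), Marco (0.59, SE 0.50, adjusted p = 0.633), Clec4f (0.10, SE 0.19, adjusted p = 0.882) and Adgre1 (0.44, SE 0.25, adjusted p = 0.372) did not pass. Vsig4 rose by 0.74 (SE 0.19, adjusted p = 0.00458), a call lost without the first animal on chow (0.65) or the first on the atherogenic diet (0.56).

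H2-Aa and H2-Ab1, which encode chains of the class II antigen presentation molecule, were among the 15 largest rises with no overlap between diets, and their partner Cd74 is on the macrophage list. H2-Aa stood at 7.16, 7.54 and 7.0 on chow and 10.18, 9.72 and 10.14 on the atherogenic diet and rose by 2.78 (SE 0.43, adjusted p = 9.16e-07), H2-Ab1 rose by 2.82 (SE 0.43, adjusted p = 8.82e-07) and the invariant chain Cd74 by 2.54 (SE 0.39, adjusted p = 8.12e-07). Of 3 other H2-Aa probe sets 2 rose (2.46, adjusted p = 3.69e-07, and 3.28, adjusted p = 1.49e-07) and 1 did not pass (0.18, adjusted p = 0.83), and both other H2-Ab1 probe sets rose (1.38, adjusted p = 0.037, and 2.49, adjusted p = 5.22e-05). The second animal on the atherogenic diet had the lowest H2-Aa and H2-Ab1 of its group. The genes of this family are close in sequence, so their probe sets may share signal.

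**Figure D2:**
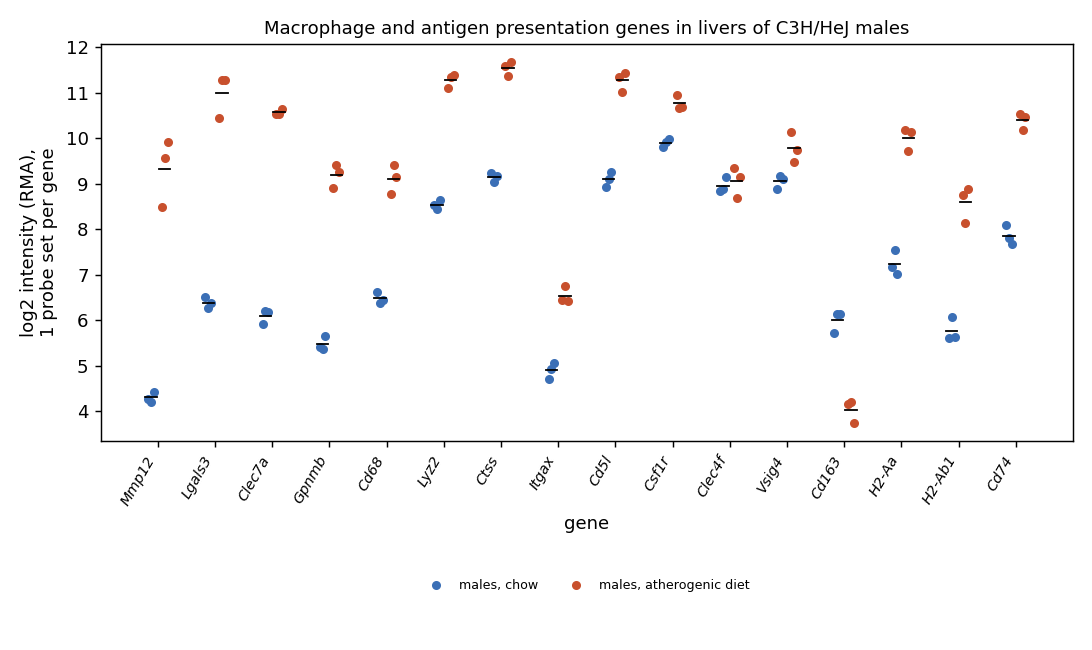
Log2 intensity of macrophage and class II antigen presentation genes in each C3H/HeJ male, 3 on chow (blue) and 3 on the atherogenic diet (red), with bars at group means. The red points lie far above the blue ones in Mmp12 (mean 9.33 against 4.30), overlap in Clec4f, and lie below them in Cd163 (4.03 against 5.99).

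Of 26 measured extracellular matrix and stellate cell genes, 15 rose and none fell (median 0.78), and 13 to 15 rose when single libraries were left out. The fibrillar collagen gene Col3a1 stood at 8.17, 8.59 and 8.53 on chow and 10.75, 10.59 and 10.40 on the atherogenic diet, a rise of 2.15 (SE 0.34, adjusted p = 2.31e-06), with a second probe set that rose too (1.18, adjusted p = 0.000204). Vimentin, Vim, a filament protein of mesenchymal and blood cells, stood at 7.48, 7.40 and 6.91 and 9.21, 9.41 and 9.64 and rose by 2.15 (SE 0.30, adjusted p = 4.62e-08), and both of its other probe sets rose (2.11, adjusted p = 6.06e-08, and 2.64, adjusted p = 3.69e-07). Col5a2 (1.50, SE 0.24, adjusted p = 1.99e-06), Col1a2 (1.42, SE 0.27, adjusted p = 0.000102), Col6a3 (1.19, SE 0.20, adjusted p = 9.48e-06) and the stellate cell receptor Pdgfrb (1.11, SE 0.24, adjusted p = 0.000635) rose with them, though a second probe set of Col5a2 (0.16, adjusted p = 0.622) and of Pdgfrb (0.19, adjusted p = 0.651) did not pass. Col1a1 rose by 0.76 (SE 0.21, adjusted p = 0.00993), a call lost without the second animal of either diet (0.64 on leaving out the one on chow, 0.74 the other). The protease inhibitor Timp1 rose by 0.90 (SE 0.23, adjusted p = 0.005) and lost its call without the second animal on chow (0.75). Smooth muscle actin, Acta2, the usual mark of activated stellate cells, did not pass (0.47, SE 0.18, adjusted p = 0.109). The summed intensity of the list was 5031 to 6944 on chow and 11027 to 11260 on the atherogenic diet.

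Markers of other cells of the liver were measured beside these. Of endothelial markers 5 of 14 rose, led by the sinusoidal receptors Lyve1 (1.24, SE 0.24, adjusted p = 8.07e-05) and Stab2 (0.74, SE 0.17, adjusted p = 0.00163) beside Vwf, Stab1 and Clec4g. The number was 2 without the second animal on chow, 4 without the third on the atherogenic diet and 3 in the other omissions. Of cholangiocyte markers 4 of 10 rose, Krt8, Krt18, Cd24a and Anxa5, and the bile duct genes Krt19 (0.03, SE 0.15, adjusted p = 0.971) and Epcam (0.12, SE 0.12, adjusted p = 0.706) did not pass. Krt8, a keratin that hepatocytes also make, stood at 10.30, 10.22 and 10.34 on chow and 11.09, 12.30 and 11.59 on the atherogenic diet, a rise of 1.37 (SE 0.17, adjusted p = 4.54e-09), and the summed cholangiocyte list was 3860 to 4126 and 5926 to 12617. The neutrophil list had 4 rises of 12, of which Lcn2 is also an acute phase gene of hepatocytes, 1 without the first animal on chow and 2 without the second or the third on chow or on the atherogenic diet. The neutrophil proteins S100a8 (1.43, SE 0.45, adjusted p = 0.0298) and S100a9 (1.34, SE 0.43, adjusted p = 0.0345) each lost the call without any 1 library but the first on the atherogenic diet (changes of 1.20 to 1.80 and 1.04 to 1.84). Of lymphocyte markers 1 of 18 rose, the interleukin receptor Il7r (0.65, SE 0.17, adjusted p = 0.00649), and it lost its call without the first animal on chow or the second on the atherogenic diet (0.60 and 0.54). The summed erythroid list was 1819 to 1916 on chow and 1409 to 1527 on the atherogenic diet. Neither the 5 erythroid nor the 10 skeletal muscle markers had a member that passed in limma or had an unadjusted p under 0.05, and of 4 adipocyte markers only Fabp4 rose (summed list 317 to 340 and 526 to 731). Of 10 pancreas markers the elastase Cela1 fell (-1.07, SE 0.20, adjusted p = 4.76e-05), a call lost with all 12 strains in the fit (adjusted p = 0.0676), and the summed list was 1986 to 2148 on chow and 1170 to 1267 on the atherogenic diet. What part the cell makeup had in the rises of macrophage, matrix and endothelial genes was not tested.

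Acute phase genes, which hepatocytes switch on in inflammation, moved upward wherever they passed. Of 24 measured, 13 rose and none fell (median 0.33), and 9 to 13 rose when single libraries were left out. Lcn2, a lipocalin that binds bacterial siderophores, stood at 5.83, 5.32 and 5.60 on chow and 9.55, 10.56 and 10.48 on the atherogenic diet and rose by 4.61 (SE 0.66, adjusted p = 1.8e-07), or 24.4-fold. Of the serum amyloid A genes, Saa3 stood at 7.46, 7.54 and 7.17 and 9.99, 10.55 and 10.93 and rose by 3.10 (SE 0.52, adjusted p = 7.48e-06). Saa2 stood at 8.15, 7.50 and 7.60 and 10.19, 10.81 and 11.19 and rose by 2.98 (SE 0.65, adjusted p = 0.000755), and Saa1 rose by 2.26 (SE 0.60, adjusted p = 0.00847). Saa1 and Saa2 are near-identical copies, so their probe sets may share signal. In Saa2 and Saa3 the third animal on the atherogenic diet was highest. The orosomucoids Orm2 (2.11, SE 0.55, adjusted p = 0.00612) and Orm3 (1.60, SE 0.29, adjusted p = 4.04e-05) rose, and so did Socs3, a brake on cytokine signalling (1.75, SE 0.43, adjusted p = 0.00359). Socs3 lost its call without the second animal of either diet (1.38 without the one on chow, 1.51 without the other). The hormone of iron control, Hamp, did not pass (-0.30, SE 0.59, adjusted p = 0.891).

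Of the pathway of Tlr4, the genes that passed were those that hand lipopolysaccharide to the receptor. Of 22 measured genes 3 rose, Cd14, Lbp and Ly96, and none fell (median 0.09). Ly96 stood at 6.02, 5.61 and 5.53 on chow and 6.18, 6.54 and 6.52 on the atherogenic diet and rose by 0.70 (SE 0.16, adjusted p = 0.00117), and Lbp rose by 0.77 (SE 0.17, adjusted p = 0.000973). Tlr4 did not pass in any of its 4 probe sets (0.34, SE 0.16, adjusted p = 0.223, in the one used), nor did Tlr2 (0.90, SE 0.30, adjusted p = 0.0519), the cytokines Tnf (-0.06, SE 0.14, adjusted p = 0.905) and Il1b (0.26, SE 0.27, adjusted p = 0.726) or the NF-kB inhibitor Nfkbia (0.08, SE 0.15, adjusted p = 0.888). The allele of Tlr4 cannot be read from these intensities. Among complement genes 5 of 19 rose, the C1q chains above, properdin, Cfp (1.11, SE 0.23, adjusted p = 0.000421), and factor B, Cfb (0.46, SE 0.09, adjusted p = 0.000135); the number was the same whichever of the 6 libraries was left out. A second probe set of Cfp did not pass (0.07, adjusted p = 0.862).

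Chemokine and interferon response genes rose in part. Of 21 chemokine and inflammatory genes 7 rose (median 0.34), 3 without the third animal on the atherogenic diet, 4 without its second or the second or the third on chow, and 5 or 6 in the other omissions. Ccl6, a chemokine of myeloid cells, stood at 6.71, 6.46 and 6.50 on chow and 9.32, 9.52 and 10.10 on the atherogenic diet and rose by 3.09 (SE 0.31, adjusted p = 5.8e-13). The neutrophil attractant Cxcl1 rose by 1.40 (SE 0.43, adjusted p = 0.0263), Cxcl9 by 1.83 (SE 0.59, adjusted p = 0.0402) and the adhesion molecule Icam1 by 1.33 (SE 0.33, adjusted p = 0.0037). Icam1 lost its call without the third animal on the atherogenic diet (1.10), and Cxcl1 and Cxcl9 each did without any 1 of 4 libraries (1.27 to 1.64 and 1.25 to 2.22). Ccl2, the monocyte attractant, did not pass (0.74, SE 0.33, adjusted p = 0.196). Of 24 interferon response genes 8 rose (median 0.50), 3 without the first animal on chow, 4 without the third on the atherogenic diet, 6 without its first and 5 in the other omissions. The myeloid transcription factor Irf8 (1.55, SE 0.28, adjusted p = 2.7e-05) and the antiviral genes Oas1a (1.03, SE 0.23, adjusted p = 0.000904) and Bst2 (0.85, SE 0.20, adjusted p = 0.0018) rose in the full set and in every omission.

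Some of the largest changes were in genes of no list or a small one. Obp2a, a lipocalin of the odorant binding family, stood at 5.08, 4.87 and 4.80 on chow and 7.50, 8.81 and 10.16 on the atherogenic diet, a rise of 3.91 (SE 0.46, adjusted p = 2.73e-10), and the 3 animals on that diet spread widely. Dct, dopachrome tautomerase of melanin synthesis, stood at 8.16, 7.96 and 8.04 and 6.09, 5.87 and 5.76 and fell by 2.15 (SE 0.30, adjusted p = 5.97e-08). Pctp, the phosphatidylcholine transfer protein, stood at 10.07, 10.10 and 10.21 and 7.89, 8.30 and 8.25 and fell by 1.98 (SE 0.20, adjusted p = 1.67e-12). These 3 genes were named among those with no overlap between the diets, so their separation is given by that choice. Nipal1, a magnesium transporter, fell by 2.00 (SE 0.44, adjusted p = 0.000846), and the transcription factor gene Tcf24 fell by 1.98 (SE 0.31, adjusted p = 9.84e-07).

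Other gene groups changed in few members. Over all genes 4.42% rose and 2.79% fell, so a count near those shares says little of a list. Among cytochrome P450 and flavin monooxygenase genes 2 rose and 5 fell of 25: Fmo5 rose by 0.96 (SE 0.17, adjusted p = 1.51e-05) and Cyp2c70 by 0.35, and Cyp2b10, the target of the drug receptor CAR, fell by 1.67 (SE 0.45, adjusted p = 0.00855), a call lost without the first or the third animal on chow (-1.57 and -1.53). The other falls were Cyp2c38, Cyp2c39, Fmo1 and Cyp2j5, and the number was 3 without the third animal on chow or the second or the third on the atherogenic diet; 1 rose in every omission but that of the second on chow. Among targets of the oxidative stress factor NRF2 2 rose and 3 fell of 21, with the transferases Gstm6 (-1.07, SE 0.25, adjusted p = 0.00176) and Gsta3 (-0.67, SE 0.12, adjusted p = 3e-05) lower beside Aldh1a1. The rises, Hmox1 and Srxn1, were 0 without the third animal on chow or the second or the third on the atherogenic diet, and 1 without the second on chow. Of proliferation genes 5 rose and 0 fell of 24, 1 without the first animal on chow or the second or the third on the atherogenic diet, and 3 without the third on chow. The replication factor Mcm6 (1.50, SE 0.42, adjusted p = 0.0129) and cyclin D1, Ccnd1 (1.17, SE 0.33, adjusted p = 0.0137), were among them, beside Mcm4, Pcna and Rrm2. None of these 5 kept its call without the third animal on the atherogenic diet, where the 1 that passed was another member. Mcm6 lost the call without the first animal on chow or the second or the third on the atherogenic diet, and Ccnd1 without the second on chow or the third on the atherogenic diet, while Mki67, the usual mark of dividing cells, did not pass (0.54, SE 0.39, adjusted p = 0.552). In the endoplasmic reticulum stress list 4 rose and 1 fell of 23: Chac1, a glutathione-degrading enzyme (1.38, SE 0.33, adjusted p = 0.00302), and Atf3 (0.99, SE 0.19, adjusted p = 0.000135) rose beside Pdia6 and Edem1, and 2 rose without the first animal on chow or the second on the atherogenic diet. Atf4 fell (-0.35), a call lost without the first or the third animal on chow or the second or the third on the atherogenic diet. Of immediate early genes 4 rose and 0 fell of 19, with Klf6 (1.02, SE 0.21, adjusted p = 0.00043) in every omission and Jun (2.26, SE 0.62, adjusted p = 0.0112) lost without the third animal of either diet (1.94 and 2.01). The others were Atf3 and Gadd45g (2.54, SE 0.64, adjusted p = 0.00473), the latter lost without the second animal on chow (2.03). In glucose metabolism the aldolase Aldoc stood at 8.17, 8.06 and 8.07 on chow and 6.78, 6.33 and 6.21 on the atherogenic diet and fell by 1.66 (SE 0.18, adjusted p = 2.03e-11; a second probe set, -0.17, adjusted p = 0.182), and 0 rose and 2 fell of 16, the other fall being Insr, lost without the second animal on the atherogenic diet. The transferrin receptor Tfrc rose by 1.41 (SE 0.34, adjusted p = 0.00339), with both other probe sets below the threshold (0.37, adjusted p = 0.371, and 0.33, adjusted p = 0.286), and among metal-handling genes 2 rose and 0 fell of 16, the other being Cp, which lost its call without any 1 library but the first on the atherogenic diet. In amino acid and urea cycle genes 0 rose and 4 fell of 21 (Cth, Arg1, Gnmt and Mat1a), from -0.58 for cystathionase, Cth, to -0.41 for Mat1a, and the number was 2 without the second or the third animal on the atherogenic diet. Of male-biased liver genes 2 rose and 1 fell of 15: Ugt2b38 (1.33) and Spink1 (1.01) rose, and Susd4 fell (-1.05). Of female-biased ones 1 rose and 2 fell of 18: Abcd2 (-1.94) and Acot4 (-0.78) fell, and Ntrk2 rose (0.70). The number of male-biased genes that rose was 1 without the first or the third animal on chow or the third on the atherogenic diet, and the number of female-biased ones that fell was 1 in every omission but that of the third on the atherogenic diet. Socs3 was the one growth hormone axis gene of 14 that passed, and of oxidative phosphorylation genes 0 rose and 2 fell of 27, Ndufs1 and Sdhd, the former lost without the third animal of either diet. The shares called in both lists lay near the 7.21% of all genes. No gene of the 19 clock genes or the 11 ribosomal protein genes passed in limma. Of them 4 and 0 had an unadjusted p under 0.05, against 3164 of all 18193 genes.

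Each value above is of the probe set with the highest mean level. For 2900026A02Rik, Abcb1a, Abcd2, Acss2, Atf4, Ccnd1, Col1a1, Col1a2, Cpt2, Csf1r, Cxcl1, Cxcl9, Dnttip2, Fads1, Fdft1, Hmgcs1, Hsd17b7, Insr, Klf6, Lbp, Lss, Mcm6, Mttp, Mvk, Nipal1, Papss2 and Socs3, which passed, at least 1 further probe set did not pass. Further probe sets were looked at singly for only part of the genes named above. Among the rest, Acadl, Clec4g, Edem1, Lipe, Ntrk2, Rrm2 and Srxn1 lost their diet call with the mean of a gene's probe sets. No gene had probe sets that passed in opposite directions.

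**Figure D3:**
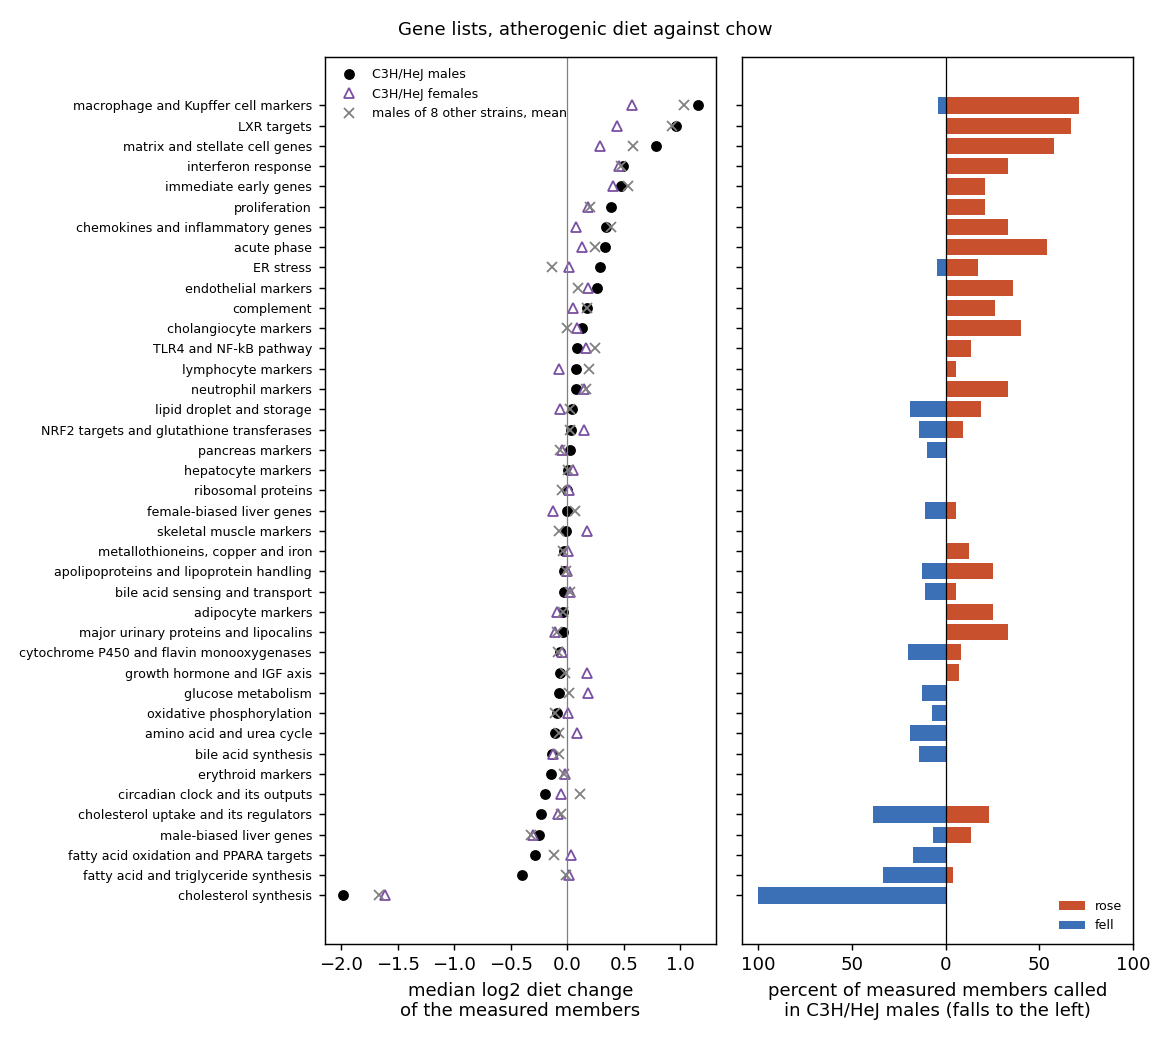
Left, the median log2 diet change of the measured members of each gene list (the sex chromosome checks aside) in C3H/HeJ males (filled circles), C3H/HeJ females (open triangles) and, as the mean over strains, males of the 8 other strains (crosses). Right, the percent of members that rose (red) or fell (blue, drawn to the left) in C3H/HeJ males; cholesterol synthesis stands at the bottom with a median of -1.99 and macrophage markers at the top with 1.16.

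The diet change of the males was set against that of C3H/HeJ females, whose 6 libraries are separate animals, by testing the difference of the 2 changes in limma. It passed for 23 of 18193 genes (0.126%), with the male change above the female one in 15 (0.0824%) and below it in 8 (0.044%). Macrophage genes named above were prominent among the first. Mmp12 stood at 4.42, 4.40 and 4.09 in females on chow and 5.99, 6.19 and 6.85 in females on the atherogenic diet, a change of 2.04 where males had 5.03, and the difference was 2.99 (SE 0.52, adjusted p = 0.000539). Gpnmb stood at 5.10, 5.57 and 5.33 and 5.79, 5.95 and 6.20 in females, and the male change was higher by 3.06 (SE 0.43, adjusted p = 7.46e-06). For Lgals3, with 7.28, 7.22 and 6.96 and 8.96, 9.05 and 8.99 in females, the difference was 2.77 (SE 0.50, adjusted p = 0.00106). For Clec7a, with 6.58, 6.61 and 6.60 and 8.22, 8.71 and 8.79, it was 2.50 (SE 0.48, adjusted p = 0.00324). In all 4 genes females on the atherogenic diet lay below males on it with no overlap. These genes were named for large sex differences in change, so that separation is in part given by the choice. Of the 24 macrophage markers, 3 passed the test of the difference (Lgals3, Gpnmb and Cd68, the last only with both the second male and the third female on the atherogenic diet) and the median change was 0.57 in females and 1.16 in males. The lysosomal proton pump subunit Atp6v0d2 differed too (2.09, SE 0.43, adjusted p = 0.00923), a call lost without the first male on chow (1.99) or the third female on the atherogenic diet (1.95). The exporter Abcg1 had a male change above the female one by 1.28 (SE 0.28, adjusted p = 0.019), a call lost without any 1 of 7 of the 12 libraries (1.16 to 1.43).

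Outside macrophage genes, Obp2a stood at 4.33, 4.45 and 4.50 in females on chow and 4.26, 4.63 and 4.49 on the atherogenic diet, with a female change of 0.03, and the difference was 3.87 (SE 0.64, adjusted p = 0.000262). The retinol dehydrogenase Rdh16 went the other way. It stood at 8.54, 8.10 and 8.23 in males on chow and 7.12, 6.57 and 6.43 on the atherogenic diet, and at 8.54, 8.86 and 8.58 and 8.93, 8.84 and 9.07 in females, and the male change was -1.59 (SE 0.21, adjusted p = 2.71e-08) and the difference -1.88 (SE 0.30, adjusted p = 0.000174). The groups of males did not overlap, and those of females differed little. Rdh16f2, of the same enzyme family and possibly sharing probe signal, had a difference of -1.26 (SE 0.29, adjusted p = 0.032). For Sult3a1 and Dio1 it was the female values that differed between the diets. Sult3a1, a sulfotransferase that is female-biased in mouse liver, stood at 12.01, 11.52 and 12.15 in females on chow and 8.87, 9.17 and 7.64 on the atherogenic diet, while all males lay near the bottom of the scale (3.81, 3.73 and 4.10 on chow, 3.84, 3.87 and 3.94 on the atherogenic diet), and the difference of 3.34 (SE 0.56, adjusted p = 0.000282) had no male change behind it (0.00). The deiodinase Dio1 changed by -2.18 in females and spread widely in both sexes (7.52, 8.23 and 5.58 and 5.83, 4.82 and 4.13 in females, 5.20, 4.93 and 5.64 and 4.33, 5.37 and 6.74 in males), and its difference of 2.41 (SE 0.52, adjusted p = 0.015) lost the call without any 1 of 7 of the 12 libraries (1.78 to 3.17). The brain cholesterol hydroxylase gene Cyp46a1 (-1.01, SE 0.23, adjusted p = 0.0289) and Pnliprp1, a pancreatic lipase relative (-0.94, SE 0.19, adjusted p = 0.00688), had changes of 1.05 and 0.83 in females and 0.04 and -0.11 in males. Trit1 (-0.90), Dnttip2 (-0.60), Wdr3 (-0.58) and Numb (-0.46) were the other genes with a lower male change. Of the 16 genes with the largest differences, Obp2a, Sult3a1, Gpnmb, Mmp12, Lgals3, Clec7a and Rdh16 passed in every alternative, and the others lost the call in at least 1, Trit1 without the first female on chow or the second male on the atherogenic diet and Pnliprp1 without the first female on the atherogenic diet, in a fit of the 12 C3H/HeJ libraries alone and in one of all 12 strains. Cyp46a1, Rdh16f2, Dnttip2, Wdr3 and Numb each lost it without any 1 of 7 or 8 of the 12 libraries, with ranges of -1.25 to -0.81, -1.38 to -1.05, -0.67 to -0.50, -0.70 to -0.51 and -0.52 to -0.39. Each of them lost it with quantile normalization too. The count itself was 11 without the first female on chow, 12 without the first male on chow, 13 without the third female and 14 without the second male on the atherogenic diet, and 56 without the first male on it.

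**Figure D4:**
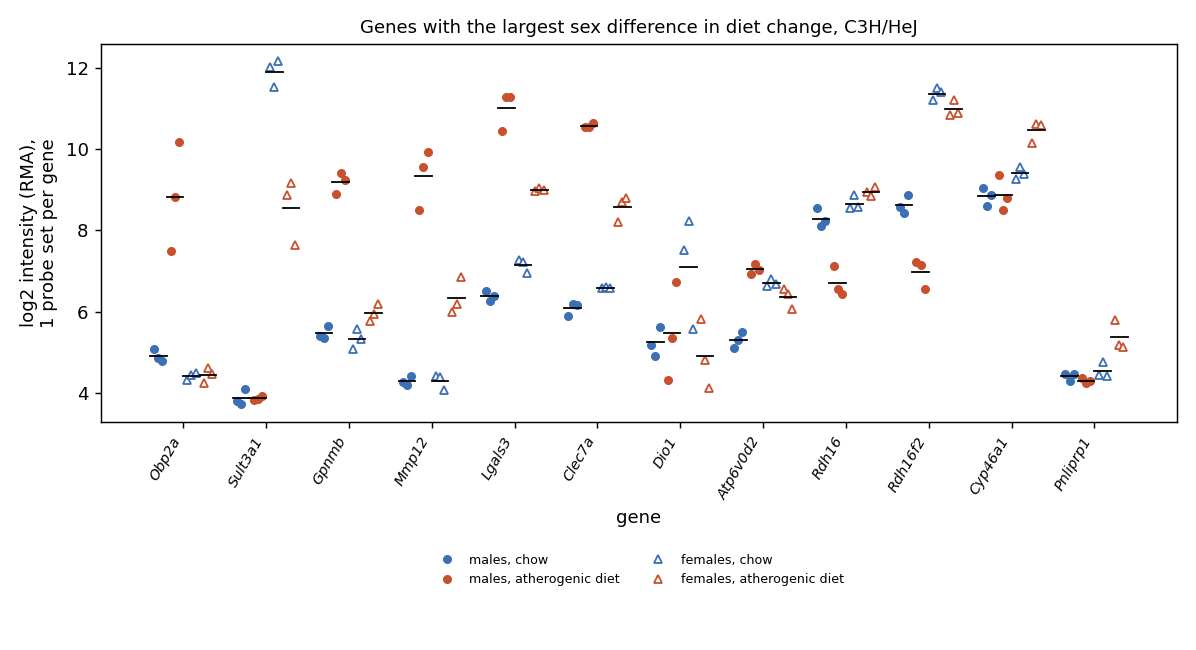
Log2 intensity of 12 genes with large sex differences in diet change, in each C3H/HeJ male (filled circles) and female (open triangles) on chow (blue) and the atherogenic diet (red), 3 animals a group, with bars at group means. Male and female values separate on the atherogenic diet in Mmp12 (means 9.33 and 6.34), while Sult3a1 moves in females only, from 11.89 to 8.56.

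Cholesterol synthesis genes were lower on the atherogenic diet in females too, with a median change of -1.61 against -1.99 in males. No member passed limma's test of the difference, and 2 of 17 had an unadjusted p under 0.05, against 1728 of all 18193 genes. For Sqle the difference of the changes was 0.50 (SE 0.55, adjusted p = 0.848). In the lists of fatty acid synthesis and oxidation the female medians were 0.01 and 0.03 where the male ones were -0.40 and -0.28. The male change was above the female one in 2 of 24 and 0 of 23 members, against 47.4% of all genes. No member of either list passed limma's test of the difference, and 6 and 6 had an unadjusted p under 0.05. Over all genes 1728 of 18193 had one in that test. For matrix genes the medians were 0.29 in females and 0.78 in males, for LXR targets 0.44 and 0.96, and for acute phase genes 0.13 and 0.33. Of these 3 lists only Abcg1 passed the test of the difference. Over all genes the changes of males and females had a Pearson r of 0.595 and a Spearman rho of 0.294, descriptions across genes of 12 separate libraries.

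The same diet change was then set against the mean change of males of the 8 other strains. The difference passed for 41 of 18193 genes (0.225%), with C3H/HeJ above the other strains in 28 (0.154%) and below them in 13 (0.0715%). With SM/J males among the other strains it passed for 102. Macrophage genes were again among those with the largest differences, but C3H/HeJ did not stand alone in them. The change of Mmp12 was 5.03 in C3H/HeJ males, 5.06 in NZB/BINJ, 3.64 in A/J, 2.66 in BALB/cJ, 2.49 in MRL, 2.06 in C57BL/6J, 2.00 in 129S1/SvImJ, 1.61 in I/LnJ and 0.59 in DBA/2J. C3H/HeJ and NZB/BINJ were highest and differed by far less than the SE, and the difference from the mean of the 8 was 2.51 (SE 0.39, adjusted p = 6.54e-05). Clec7a changed by 4.47 in C3H/HeJ, by 3.99 in NZB/BINJ, 3.94 in A/J and 3.45 in 129S1/SvImJ, down to 0.36 in DBA/2J, and the difference from the mean was 2.01 (SE 0.36, adjusted p = 0.0009). For Gpnmb the order was NZB/BINJ (5.23), C3H/HeJ (3.71) and A/J (3.55), with the other strains at 1.89 or less, and C3H/HeJ lay above the mean of the 8 by 1.95 (SE 0.33, adjusted p = 0.000289). For Lgals3 C3H/HeJ (4.61) was followed by NZB/BINJ (4.43), A/J (4.27) and 129S1/SvImJ (4.08), all within 2 SE of it. Its difference from the mean (1.92, SE 0.38, adjusted p = 0.00391) lost the call without DBA/2J (1.55) or without the second or the third C3H/HeJ male on the atherogenic diet (1.78 and 1.78). In DBA/2J males these 4 genes changed least, by 0.07 to 0.59, and of the 8 strains DBA/2J had the lowest r with C3H/HeJ over all genes. Mmp12, Clec7a and Gpnmb passed in every alternative, without each strain in turn and with SM/J males included. The median change of the macrophage list was 1.16 in C3H/HeJ males and 1.04 for the mean of the 8 strains. These strain comparisons share the C3H/HeJ libraries with the diet change above.

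Fmn1, a formin that nucleates actin filaments, had the largest difference below the other strains. In C3H/HeJ males it stood at 5.63, 6.23 and 5.94 on chow and 4.48, 4.67 and 4.59 on the atherogenic diet, a fall of 1.35 (SE 0.18, adjusted p = 1.05e-08), and its second probe set fell as well (-0.65, adjusted p = 6.65e-06). On chow the other strains' means ran from 3.80 to 4.71, all below C3H/HeJ (5.93 ± 0.30, SD, n = 3), whose values on the atherogenic diet lay in that range. Those chow means lay below the array medians, where the array limits how far a gene can be seen to fall. The changes in the other strains ran from -0.33 to 1.43, and the difference was -1.79 (SE 0.19, adjusted p = 8.52e-11), which passed in every alternative. C3H/HeJ females, which entered the shared fit but not this contrast, stood at 6.16, 5.81 and 5.93 on chow and 4.77, 4.78 and 5.05 on the atherogenic diet, again with no overlap. How many of all genes had no overlap in females was not counted. Tmem71, a membrane protein gene, changed by 0.19 to 1.85 in the other strains and stood at 4.26, 4.54 and 4.66 and 4.77, 4.59 and 4.73 in C3H/HeJ, a difference of -1.04 (SE 0.19, adjusted p = 0.00149) that also passed in every alternative. BALB/cJ was the one strain with a smaller change (0.19). All 6 values of Tmem71 in C3H/HeJ males lay below the array medians, and whether the array detected the gene in this strain was not tested. Rdh16 fell more in C3H/HeJ (-1.59) than in any of the 8 (-1.14 to -0.11), and the difference was -1.10 (SE 0.23, adjusted p = 0.00835). That call was lost without the first male on chow (-0.97) or the second or the third on the atherogenic diet (-1.03 and -0.96). Dct (-1.36, SE 0.31, adjusted p = 0.0228), Abcd2, a peroxisomal fatty acid transporter (-1.27, SE 0.29, adjusted p = 0.0171), Cib3 (-0.92), Papss2 (-0.88) and 2900026A02Rik (-0.63) were the other genes with the largest differences below the mean. Each of these 5 lost its call without any 1 of 4 or 5 of the 6 C3H/HeJ libraries, with ranges of -1.46 to -1.29 for Dct and -1.33 to -1.19 for Abcd2. They also lost it on leaving out single other strains: Dct without DBA/2J or MRL (-1.28 and -1.28), Abcd2 without NZB/BINJ (-1.14), Cib3 without I/LnJ or NZB/BINJ (-0.81 and -0.75), and Papss2 and 2900026A02Rik without DBA/2J (-0.82 and -0.57). With the SM/J males among the other strains Cib3 lost its call as well (-0.74, adjusted p = 0.0694), and the other named genes of this comparison passed, Fmn1 at -1.68, Dct at -1.71, Abcd2 at -1.36, Rdh16 at -1.26 and Tmem71 at -0.85.

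Above the other strains, Obp2a had the largest difference (2.84, SE 0.48, adjusted p = 0.000347). Its change was 4.36 in DBA/2J, 3.91 in C3H/HeJ, 1.82 in MRL, 1.50 in 129S1/SvImJ and 1.04 in I/LnJ, and between -0.28 and 0.27 in the other 4. The call was lost without the third male on the atherogenic diet, the animal with the highest Obp2a (2.17, adjusted p = 0.0581), and the difference was 3.31 without DBA/2J. On chow the strains' means of Obp2a already spread from 4.34 to 9.88. Sprr1a, a small proline-rich protein of stressed epithelia, stood at 4.92, 4.83 and 5.15 in C3H/HeJ males on chow and 5.36, 8.32 and 6.85 on the atherogenic diet, against changes of -0.14 to 0.73 in the 8 strains. Its difference of 1.63 (SE 0.29, adjusted p = 0.000676) rested on the second male, without which it was 0.89 (adjusted p = 0.33). Ccl6 (1.42, SE 0.32, adjusted p = 0.0208) and the glucuronosyltransferase Ugt2b38 (1.65, SE 0.39, adjusted p = 0.0338) each lost the call without any 1 of 5 or 4 C3H/HeJ libraries (1.19 to 1.58 and 1.33 to 2.02). Ccl6 lost it also without DBA/2J or MRL (1.17 and 1.26), and Ugt2b38 without C57BL/6J, I/LnJ or NZB/BINJ (1.49, 1.54 and 1.51). With the SM/J males the differences above the mean were 3.01 for Obp2a, 1.66 for Sprr1a, 1.79 for Ccl6 and 1.61 for Ugt2b38, all of which passed. The count of 41 was 9 without the second and 11 without the third male on the atherogenic diet, 14 without the first and 17 without the second on chow, and 28 and 55 in the other omissions. Leaving DBA/2J out of the mean gave 29, and leaving out any other 1 strain gave 33 to 46. No member of the cholesterol synthesis, fatty acid synthesis, fatty acid oxidation or acute phase lists passed this test by an adjusted p in limma. In turn 0 of 17, 6 of 24, 6 of 23 and 4 of 24 had an unadjusted p under 0.05, against 1359 of all 18193 genes. The median change of cholesterol synthesis was -1.67 for the mean of the 8 strains, and of fatty acid synthesis -0.01.

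**Figure D5:**
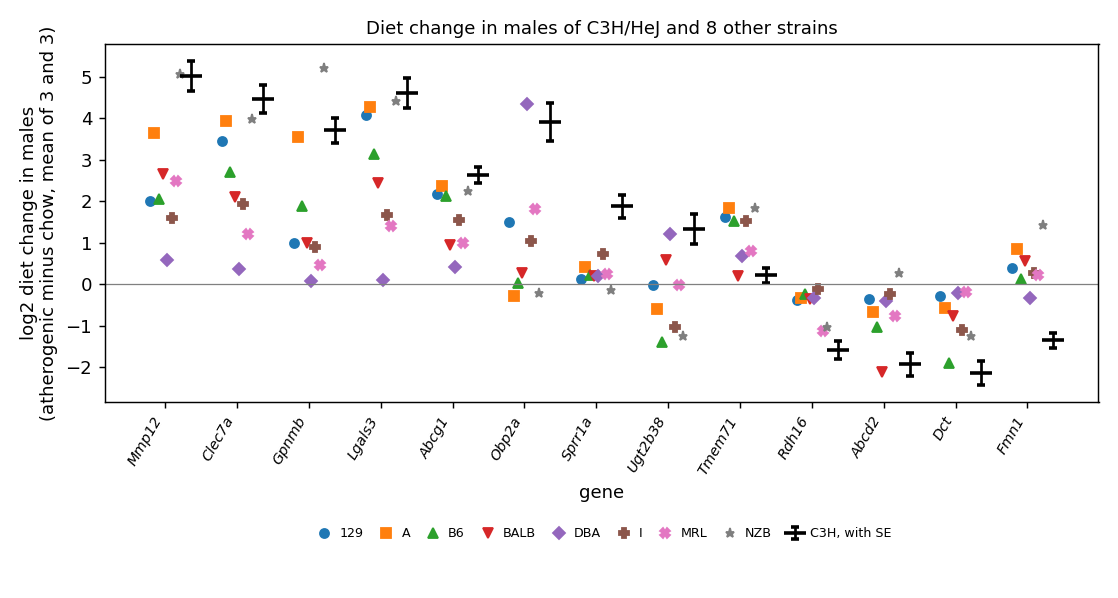
Log2 diet change of 13 genes in males, with 1 coloured mark for each of the 8 other strains (means of 3 and 3 animals) and a black bar with its standard error for C3H/HeJ. NZB lies beside C3H in Mmp12 (5.06 and 5.03) and DBA is lowest at 0.59, while in Fmn1 C3H (-1.35) lies below all 8 strains, whose lowest is -0.33.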

How the data were processed

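Liver RNA of each mouse was copied from its poly(A) tail, labelled with biotin and hybridised to 1 array per animal, per the labels' protocols. The authors deposited log2 intensities per probe set, made with RMA per the submitters' processing notes, while the RMA version and which arrays were normalized together are not given in the sources used here. That the deposited values are log2 was read from their range. Arrays give no counts, so the number of animals limits the precision.

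Of 45101 probe sets, 34945 with 1 gene symbol were used, named through gene IDs of a RefSeq table (GRCm38.p6, used for names and promoter windows) where they matched (34754), and 18193 genes were tested. Where a gene had more than 1 probe set (9010 genes), that of the highest mean level over 120 libraries stood for it. The 120 libraries of the 10 strains harvested at 11 to 13 weeks entered 1 fit of 40 group means, which left 80 residual degrees of freedom. The strains PERA/Ei and CAST/EiJ were harvested after 50 weeks and did not enter. The model was fitted by lmFit and eBayes of limma (version 3.58.1) under R (version 4.3.3, with the data.table package, version 1.17.8), at a Benjamini-Hochberg adjusted p under 0.05 over all genes, and 3 contrasts: diet in C3H/HeJ males, the same minus that of females, and the same minus the mean of males of 8 other strains. Data were simulated for 18193 genes with independent normal noise, 1 spread per gene in all groups, and 200 genes changed in 1 group. Genes that move together and groups of unequal spread were not simulated, so the rates need not hold for these arrays. There, 94% of genes with a log2 change of 1 were recovered for the diet contrast, and 98% for each of the differences. At a log2 change of 0.5 it was 86% for diet, 48% for the sex difference and 58% for the strain difference, and 6.44%, 3.37% and 7.81% of the calls were false.

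Named genes were the 15 largest rises and falls with no overlap between diets, the 8 largest differences each way, and members of 41 gene lists. The members and lists were chosen with earlier results of these data known. Listed genes that no probe set named alone were not analysed here. Promoter windows were shown for cholesterol synthesis alone; Lgals3, a macrophage gene with a larger change and a CCAAT match, was left out in favour of Hmgcs1. The alternatives were other normalizations, weights, probe set rules, thresholds, sets of libraries, a replicate block, and leaving out each C3H/HeJ library or each other strain.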

Additional observations from a re-analysis of the deposited data

Results flagged for a closer look

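The diet change differed between C3H/HeJ males and females by limma's test of the difference itself (adjusted p under 0.05). The largest differences, as male minus female change on the log2 scale, were Obp2a (3.87), Sult3a1 (3.34), Gpnmb (3.06), Mmp12 (2.99), Lgals3 (2.77), Clec7a (2.50), Dio1 (2.41) and Atp6v0d2 (2.09) upward. Downward they were Rdh16 (-1.88), Rdh16f2 (-1.26), Cyp46a1 (-1.01), Pnliprp1 (-0.94), Trit1 (-0.90), Dnttip2 (-0.60), Wdr3 (-0.58) and Numb (-0.46).

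The change in C3H/HeJ males also differed from the mean change of males of the 8 other strains by the same kind of test. Above that mean lay Obp2a (2.84), Mmp12 (2.51), Clec7a (2.01), Gpnmb (1.95), Lgals3 (1.92), Ugt2b38 (1.65), Sprr1a (1.63) and Ccl6 (1.42). Below it lay Fmn1 (-1.79), Dct (-1.36), Abcd2 (-1.27), Rdh16 (-1.10), Tmem71 (-1.04), Cib3 (-0.92), Papss2 (-0.88) and 2900026A02Rik (-0.63). No group held over 3 animals, so single animals could not be screened as outliers.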

How the results depend on the processing

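The diet change passed for 1312 genes, for 765 to 1182 when 1 library was left out and for 755 at an adjusted p under 0.01. The other alternatives gave 1212 to 1918. The 23 genes with a sex difference became 11 to 56 on leaving out 1 library, 12 at an adjusted p under 0.01, 172 in a fit of the 12 C3H/HeJ libraries alone and 312 with array quality weights. The 41 genes with a strain difference became 9 to 55 on leaving out 1 library, 14 at an adjusted p under 0.01, 20 in a fit of the male libraries alone, 26 with the mean of a gene's probe sets, 92 with array quality weights and 102 with the SM/J males. Beyond the fewer libraries or the stricter threshold in some of them, the cause was not tested. With a replicate block the counts were 1312, 24 and 43. Dct and Ugt2b38 lost their strain difference there, and Rdh16f2 and Dnttip2 their sex difference. In the fit of male libraries Lgals3, Rdh16, Ccl6, Ugt2b38, Cib3, Papss2 and 2900026A02Rik lost theirs, and with the mean of the probe sets Abcd2, Ugt2b38, Papss2 and 2900026A02Rik did. Same-numbered C3H/HeJ males on the 2 diets had correlations of -0.06, 0.19 and -0.15 in their deviations from the group means. Same-numbered females had 0.11, 0.07 and 0.09, and differently numbered females -0.08 to -0.01. In the fit used the numbers were not taken to pair animals. Whether they do so in females was not tested beyond the replicate block. Of 4489 alternative values for single genes, 0 changed direction where the gene passed in the fit used or in the alternative. Changes of direction in genes that passed in neither were not counted. Quantile normalization moved the split of diet calls from 805 higher and 507 lower to 836 and 478. It moved that of the sex differences from 15 higher and 8 lower to 19 and 3. Cyp46a1, Rdh16f2, Dnttip2, Wdr3 and Numb lost their sex difference under it. A fit without the SM/J males, added after seeing the data, gave 1312, 24 and 40. No depth exists for array intensities, and genes near the bottom of the scale, such as Sult3a1 in males, could not show a fall.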
